A study of Mus musculus with 11 samples.

Results

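The MHC class II genes and the gene of their transactivator were followed in whole skin of neonatal mice after regulatory T cells (Tregs) had been removed. The 8 genes are H2-Aa, H2-Ab1, H2-Eb1, H2-DMa, H2-DMb1, H2-DMb2, Cd74 and Ciita, matched by gene name, out of 49315 genes in the table. All 8 were among the 18375 genes with enough counts to be tested. Bulk RNA sequencing was performed on 11 mice of the Foxp3-DTR strain on a C57BL/6J background, 1 mouse per library, from a punch biopsy of skin. The study used both sexes and did not record the sex of each mouse. In this strain the diphtheria toxin (DT) receptor is made from the Foxp3 locus, so that DT kills the cells that express Foxp3. Control mice received PBS (n = 2). The paper describes PBS controls as Foxp3-DTR mice for its pigmentation experiment, and the same is assumed for these 2. DT was given at 30 ng per g on postnatal day (P) 6 and P8 with skin taken on P9 in the ΔETreg group (n = 3). In the ΔLTreg group DT was given on P10 and P12 and skin was taken on P13 (n = 3). In the ΔTreg group DT was given on P6, P8, P10 and P12 and skin was taken on P13 (n = 3). The labels give no harvest day for the 2 control mice, which were pooled as a single group in every comparison with control. The study describes age-matched controls for the earlier and the later harvest, so these mice may differ in age from each other or from a depleted group. An effect of age and an effect of depletion cannot be told apart in comparisons with control. The ΔTreg and ΔLTreg groups were the only depleted groups of the same age, and every pair with ΔETreg differed in age as well as in regimen. The samples analysed here hold no DT-treated mouse without the receptor, so an effect of DT itself and an effect of Treg loss cannot be told apart.

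MHC class II molecules are dimers of an alpha and a beta chain that dendritic cells, macrophages, B cells and the Langerhans cells of the epidermis use to show peptides to CD4+ T cells. The invariant chain, encoded by Cd74, fills the peptide groove until the dimer reaches the endolysosome, where proteases cut it down and the H2-DM dimer exchanges the remnant for a peptide. Transcription of the whole group depends on the transactivator encoded by Ciita, which does not bind DNA but docks on factors sitting at conserved X and Y boxes in the promoters, and interferon-gamma switches Ciita on, in part through Irf1, in cells that do not make it by themselves.

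The promoters are printed because these boxes are where the transactivator docks, and they show which of the genes hold the letters searched for. RefSeq promoter sequences (build GRCm38.p6, 250 bases before to 50 after each annotated start) matched 5 of the 8 genes by symbol. H2-Ab1, Cd74 and Ciita had no entry. The lines below hold 100 bases of 4 of these promoters on the strand of the gene, 5′ to 3′. Capitals mark the letters searched for as an X box core (AACNGATG, or GCAACNG where it overlaps it) and a Y box core (ATTGG). The first 3 match both and H2-Aa matches only ATTGG. They lie within chr17:34305617-34305916 (H2-Eb1), chr17:34152941-34153240 (H2-DMb1), chr17:34144999-34145298 (H2-DMb2) and chr17:34287774-34288073 (H2-Aa, minus strand).
H2-Eb1: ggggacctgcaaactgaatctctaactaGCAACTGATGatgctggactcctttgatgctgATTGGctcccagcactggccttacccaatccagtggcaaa
H2-DMb1: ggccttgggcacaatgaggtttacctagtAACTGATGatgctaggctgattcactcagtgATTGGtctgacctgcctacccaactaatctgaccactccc
H2-DMb2: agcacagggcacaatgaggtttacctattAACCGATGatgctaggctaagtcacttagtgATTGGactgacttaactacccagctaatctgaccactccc
H2-Aa: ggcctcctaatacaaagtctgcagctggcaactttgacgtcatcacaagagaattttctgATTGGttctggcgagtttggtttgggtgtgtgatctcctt

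Both strands of 32851 promoter windows of this length were searched. The 5 genes had 6 of these windows. ATTGG was present in 37.4% of all windows and in 5 of the 6, the upstream window of H2-DMa lacking it, and GCAACNG in 12.7% of windows and in 1 of the 6, that of H2-Eb1. GCAACNG followed by ATTGG at a distance of 20 to 45 bases was found in 136 windows (0.414%), among them that of H2-Eb1 and of none of the other 4 genes. H2-Aa and H2-DMa matched neither GCAACNG nor AACNGATG, and in H2-DMa ATTGG lay at position -198 from the annotated start. The H2-Aa line does hold gcaac, the opening letters of GCAACNG. A missing match to these search strings does not show that a promoter lacks an X box. The letters AACNGATG were chosen after the promoters had been read, and they overlap those of GCAACNG. They were in 2.32% of windows and in those of H2-Eb1, H2-DMb1 and H2-DMb2. AACNGATG followed by ATTGG at the same distance was found in 0.0335% of windows, which is 11 windows, and H2-Eb1, H2-DMb1, H2-DMb2 and their neighbour H2-Eb2 hold 4 of them. In H2-Eb1 GCAACNG began at position -91 from the annotated start, the overlapping AACNGATG at -89 and ATTGG at -59. In H2-DMb1 AACNGATG began at -92 and ATTGG at -61. The H2-Eb1 window also holds ATTGG on the opposite strand at position -35, which is not in capitals above. A match of letters describes the window only.

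Depth was between 23377571 and 34159435 counted reads per library. Foxp3 itself had 14 to 20 counts per library in control skin and 10 to 16, 13 to 23 and 9 to 19 in ΔETreg, ΔLTreg and ΔTreg skin. In ΔTreg against control skin it differed by -0.30 ± 0.31 on the log2 scale (SE, adjusted p = 0.546), so the depletion could not be read from this transcript at these counts. Scaled to library size, ΔETreg mice lay below both controls (means 0.448 and 0.629 CPM), while ΔLTreg and ΔTreg mice overlapped them. The ΔETreg difference of -0.49 ± 0.32 on the log2 scale was not called either (SE, edgeR adjusted p = 0.99982). The share of all genes tested that separate these groups was not computed. By flow cytometry the paper reports efficient loss of skin Tregs on P9 after the ΔETreg regimen and on P13 after the ΔLTreg regimen. Leukocyte and skin cell markers are given with the class II results below. In ΔLTreg mouse 3, Ptprc, the pan-leukocyte gene that encodes CD45, was at 9.64 CPM (reads per 1000000 counted reads, with library sizes scaled by the trimmed mean of M-values, TMM) against 14.4 and 18.8 in mice 1 and 2.

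Class II transcripts rose about 2- to 3-fold in skin of ΔTreg mice against control. Their summed level was 292 and 296 CPM in the control mice, 240.3 to 296 in ΔETreg, 299.6 to 395 in ΔLTreg and 650.2 to 741 in ΔTreg mice. In ΔTreg against control, 8 of 8 genes were higher at an adjusted p below 0.05 (edgeR quasi-likelihood test, Benjamini-Hochberg adjustment over all genes tested), where 12.1% of all genes tested were called higher. Their median log2 fold change was 1.22, beside -0.01 over all genes tested. In whole skin, more cells that express class II and more RNA per cell cannot be told apart.

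**Figure D1:**
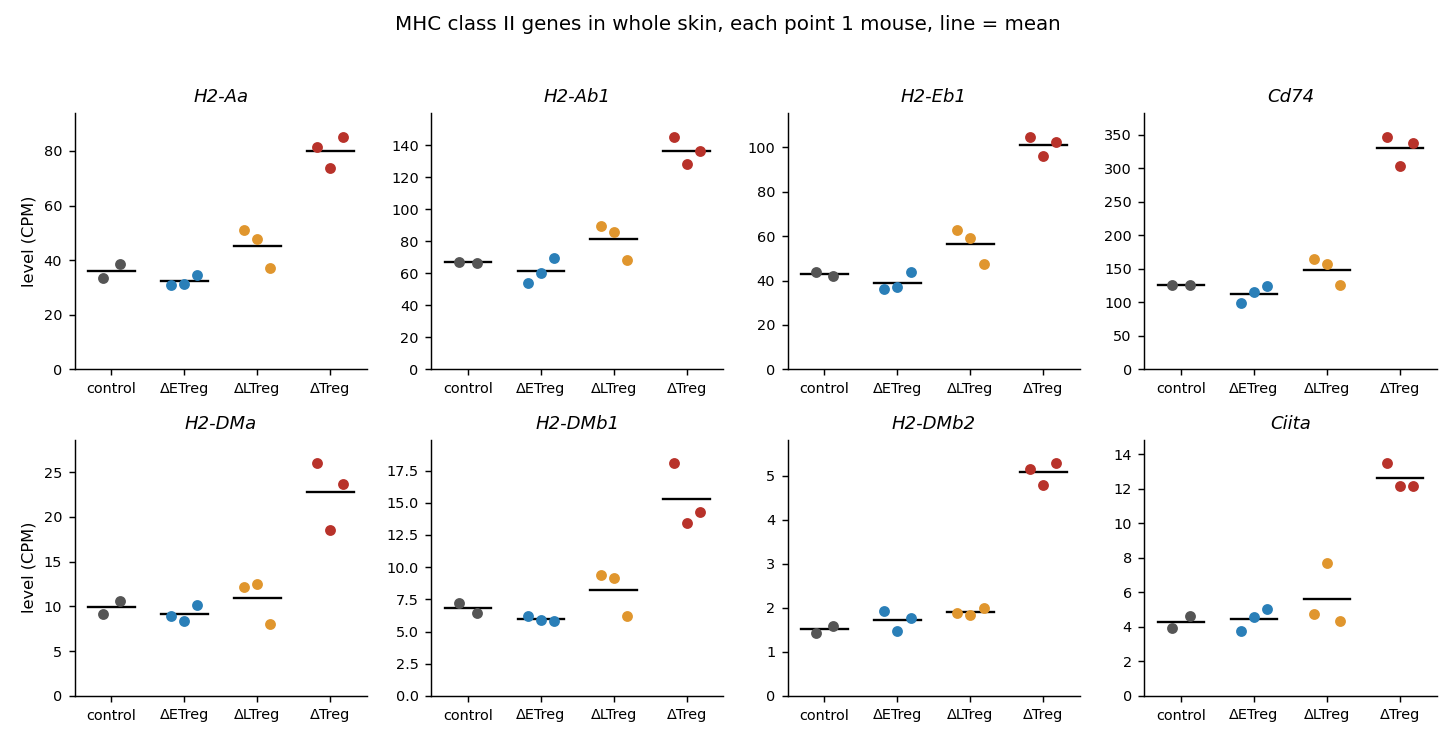
Level of each class II gene in CPM (vertical axes, from 0, a scale for each gene) in the 4 groups, with 1 point per mouse and a line at the group mean. Every ΔTreg mouse lies above all mice of the other groups for all 8 genes, and ΔLTreg mouse 3, the third orange point, lies below the other ΔLTreg mice for 7 of 8 genes, H2-DMb2 being the exception. The share of all genes tested with such a separation was not computed.

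Among the classical chains, H2-Aa encodes the alpha chain and H2-Ab1 the beta chain of I-A, the class II molecule that C57BL/6 mice display. H2-Aa was at 33.7 and 38.5 CPM in the control mice, 31.1, 31.1 and 34.7 in ΔETreg mice, 51.0, 47.8 and 37.2 in the ΔLTreg group and 81.3, 73.6 and 85.3 in the ΔTreg group. The ΔTreg mice stood apart from all others, and the lowest ΔLTreg mouse fell between the 2 controls. The log2 fold change in ΔTreg against control was 1.15 ± 0.12 (SE), or 2.22-fold (adjusted p = 0.000102). H2-Ab1 was at 66.9 and 66.6 CPM in control, 53.9, 60.4 and 69.4 in ΔETreg mice, 89.7, 85.8 and 68.3 in the ΔLTreg group and 145, 128 and 136 in the ΔTreg group. It had the smallest change of the 8 genes, with a log2 fold change of 1.03 ± 0.12 (adjusted p = 0.000197).

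H2-Eb1 encodes the beta chain of I-E, whose alpha chain gene is disrupted in C57BL/6 mice. The table lists this partner as the pseudogene H2-Ea-ps, at 0 to 1 counts in every library. H2-Eb1 itself was at 44.0 and 41.9 CPM in control, 36.0, 37.1 and 43.7 in ΔETreg mice, 62.6, 59.2 and 47.6 in the ΔLTreg group and 105, 95.9 and 102 in the ΔTreg group. The transcript of this chain without a partner rose too, with a log2 fold change of 1.23 ± 0.11 in ΔTreg against control (adjusted p = 3.59e-05). The ΔLTreg mice all lay above both controls and below every ΔTreg mouse.

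Cd74, the invariant chain gene, was the most abundant of the group. It was at 126 CPM in both controls, 98.6, 115 and 125 in ΔETreg mice, 164, 157 and 126 in the ΔLTreg group and 347, 304 and 338 in the ΔTreg group. The log2 fold change in ΔTreg against control was 1.39 ± 0.12, or 2.62-fold (adjusted p = 2.74e-05). The ΔETreg mice lay below both controls and the lowest ΔLTreg mouse was level with them.

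The peptide editor H2-DM is built from an alpha chain encoded by H2-DMa and a beta chain encoded by H2-DMb1 or H2-DMb2. H2-DMa was at 9.18 and 10.6 CPM in control, 8.95, 8.32 and 10.2 in ΔETreg mice, 12.2, 12.5 and 8.08 in the ΔLTreg group and 26.0, 18.6 and 23.7 in the ΔTreg group. Its log2 fold change in ΔTreg against control was 1.20 ± 0.20 (adjusted p = 0.00143). The ΔTreg mice did not overlap any other group, while ΔLTreg mouse 3 lay below both controls. Exons of H2-DMa share 360 bases with Brd2 on the opposite strand, and the sources used here do not say whether counting used strand. For Brd2, a chromatin reader, the same comparison gave 0.07 ± 0.05 on the log2 scale (adjusted p = 0.353).

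Both beta chain genes were higher in ΔTreg skin. H2-DMb1 was at 7.21 and 6.41 CPM in control, 6.20, 5.92 and 5.83 in ΔETreg mice, 9.36, 9.18 and 6.23 in the ΔLTreg group and 18.1, 13.5 and 14.3 in the ΔTreg group, with a log2 fold change of 1.16 ± 0.18 against control (adjusted p = 0.00111). H2-DMb2 was at 1.44 and 1.59 CPM in control, 1.92, 1.48 and 1.76 in ΔETreg mice, 1.88, 1.84 and 2.00 in the ΔLTreg group and 5.15, 4.78 and 5.29 in the ΔTreg group. Its log2 fold change of 1.74 ± 0.16, or 3.35-fold, was the largest of the 8 (adjusted p = 2.82e-05). The transcripts of these neighbours were 94.42% identical over 1255 aligned bases, and 13.51% of the 100-base windows of H2-DMb2 also occur in H2-DMb1, so the split of reads between them is uncertain. Summed to 1 feature, the pair rose by 1.29 ± 0.15 on the log2 scale (adjusted p = 0.000147).

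Ciita, the transactivator, lies outside the class II region (chr16:10480059-10528418 of GRCm38). It was at 3.92 and 4.62 CPM in control, 3.76, 4.57 and 5.06 in ΔETreg mice, 4.77, 7.69 and 4.32 in the ΔLTreg group and 13.5, 12.2 and 12.2 in the ΔTreg group. The log2 fold change in ΔTreg against control was 1.56 ± 0.23, or 2.95-fold (adjusted p = 0.000696). ΔLTreg mouse 2 stood above the rest of its group, and no mouse outside ΔTreg reached the ΔTreg range. Counts per gene do not separate the promoters from which Ciita is transcribed. Exons of Ciita share 329 bases with Dexi on the opposite strand, and the change of Dexi between these groups was 0.02 ± 0.06 on the log2 scale (adjusted p = 0.796). Between ΔTreg and ΔLTreg skin it was 0.22 ± 0.05 (adjusted p = 0.0102).

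Scaled by exon length, as RPKM (CPM per 1000 bases of exon), the levels of the genes can be compared with each other only roughly. The length is the union of all annotated exons of a gene. It can exceed that of the transcripts made, and the RPKM then comes out too low. It was 3798 bases for H2-Aa, 2568 for H2-Ab1, 9535 for Ciita and 1681 for H2-DMb1, whose aligned transcript had 1404. Cd74 led in each group, at 74.9 ± 0.254 RPKM in control (SD, n = 2) and 196 ± 13.6 in ΔTreg skin (SD, n = 3). H2-Ab1 followed at 26.0 and 53.2 RPKM, H2-Eb1 at 22.1 and 52.0, and H2-Aa at 9.50 and 21.1 in control and ΔTreg skin. The H2-DM genes were lower, from 0.867 RPKM for H2-DMb2 to 4.05 for H2-DMb1 in control, and Ciita was lowest at 0.448 RPKM in control and 1.32 in ΔTreg skin. The order, which rests on these lengths, was the same in all 4 groups, although the mice of H2-Ab1 and H2-Eb1 overlapped in the 3 depleted groups.

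The comparison of ΔTreg with ΔLTreg skin asked what the 2 earlier doses added in mice of the same age. All 8 genes were higher in ΔTreg skin at an adjusted p below 0.05, where 10.7% of all genes tested were called higher, and no ΔTreg mouse overlapped a ΔLTreg mouse for any of them. The share of all genes tested without overlap was not computed for this or any other pair of groups. H2-DMb2 had the largest log2 fold change, 1.41 ± 0.13 (adjusted p = 4.01e-05), followed by Ciita at 1.18 ± 0.19 (adjusted p = 0.00158) and Cd74 at 1.15 ± 0.11 (adjusted p = 4.21e-05). The classical chains changed least, with 0.75 ± 0.11 for H2-Ab1, 0.82 ± 0.11 for H2-Aa and 0.84 ± 0.10 for H2-Eb1. The median over the 8 genes was 0.97.

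In ΔTreg against ΔETreg skin, where age differed too, 8 of 8 genes were higher and 13.2% of all genes tested were called higher. The log2 fold changes ran from 1.16 ± 0.11 for H2-Ab1 to 1.56 ± 0.13 for H2-DMb2, with a median of 1.36. Cd74 was 2.92-fold and Ciita 2.83-fold higher. All ΔTreg mice lay above all ΔETreg mice for each gene, again without a share over all genes to set beside it.

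**Figure D2:**
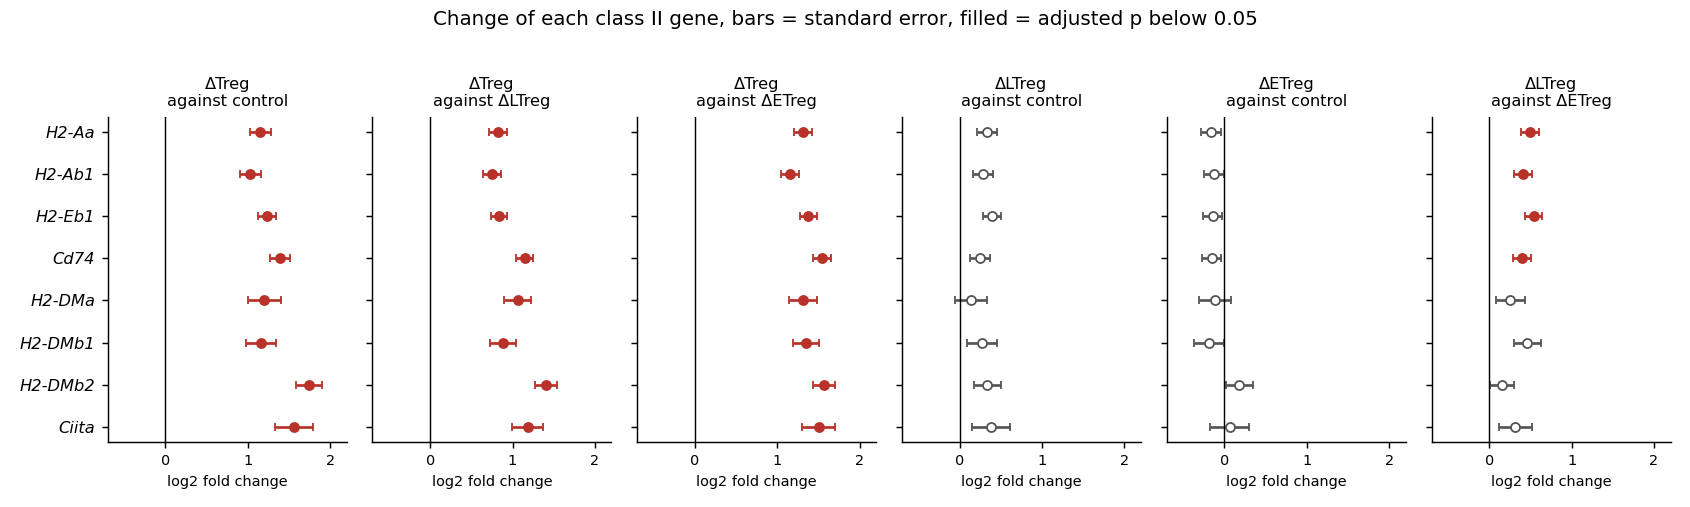
Log2 fold change of each class II gene (horizontal axes) in the 6 comparisons between groups, with bars of 1 standard error and filled red points at an adjusted p below 0.05. All 8 points are filled in the 3 comparisons of ΔTreg skin, 4 are filled in ΔLTreg against ΔETreg, and none is filled in ΔETreg or ΔLTreg against control.

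Early depletion alone left no detectable change in class II transcripts 1 day after the last dose. In ΔETreg against control, 0 of 8 genes passed the edgeR test, where 0.00544% of all genes tested, a single gene, were called in either direction. None had an unadjusted p below 0.05, and DESeq2 also called 0 of 8. The log2 fold changes ran from -0.19 ± 0.18 for H2-DMb1 to 0.18 ± 0.16 for H2-DMb2. For Cd74 the value was -0.16 with a 95% interval of -0.42 to 0.10, and for H2-Ab1 it was -0.13 with an interval of -0.39 to 0.14, so increases of the size seen in ΔTreg skin lie outside these intervals. Ciita was less precisely measured, at 0.06 with an interval of -0.45 to 0.57.

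Late depletion alone gave small positive values that did not pass the test. In ΔLTreg against control 0 of 8 genes were called by edgeR, where 4.55% of all genes tested were called in either direction, and 3 of 8 (H2-Aa, H2-Ab1 and H2-Eb1) had an unadjusted p below 0.05. All 8 log2 fold changes were above 0, from 0.14 ± 0.20 for H2-DMa to 0.39 ± 0.11 for H2-Eb1, which had the smallest adjusted p of 0.0758. DESeq2 called H2-Eb1 (adjusted p = 0.0230). Without ΔLTreg mouse 3, H2-Aa and H2-Eb1 passed, with log2 fold changes of 0.46 and 0.51 (adjusted p = 0.0222 and 0.0113).

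Between the groups with 2 doses, ΔLTreg skin had higher levels than ΔETreg skin for 4 of 8 genes, where 3.12% of all genes tested were called higher. The 4 were H2-Eb1 (0.54 ± 0.10, adjusted p = 0.0122), H2-Aa (0.49 ± 0.11, adjusted p = 0.0259), H2-Ab1 (0.41 ± 0.11, adjusted p = 0.0483) and Cd74 (0.40 ± 0.11, adjusted p = 0.0496). H2-Aa, H2-Eb1, Cd74 and H2-DMb1 did not overlap between these groups, while H2-Ab1 did. How many of all genes tested lack overlap here was not computed. H2-DMa, H2-DMb1, H2-DMb2 and Ciita had positive values that did not pass. The count changed with mice left out: it was 0 without ΔETreg mouse 2, 1 without ΔETreg mouse 1, ΔLTreg mouse 1 or ΔLTreg mouse 2, and 5 without ΔLTreg mouse 3. It was also 0 when these 6 libraries were fitted alone. Over the whole table, genes called in either direction numbered 1173 with all mice, 353 to 1172 with each mouse left out and 540 in the fit of 6 libraries. The log2 fold change of H2-Eb1 ranged from 0.46 to 0.64 with each mouse left out. Whether the count fell through fewer mice or through a particular mouse was not tested. Regimen and age cannot be told apart here.

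The proportions among the 8 genes were compared within each mouse. On the log2 scale, the ratio of H2-Ab1 to Cd74 within a mouse was -0.91 and -0.92 in control, -0.87, -0.93 and -0.85 in ΔETreg mice, -0.87, -0.87 and -0.88 in the ΔLTreg group and -1.26, -1.25 and -1.31 in the ΔTreg group. Every ΔTreg mouse lay below every other mouse. The ratio was lower in ΔTreg than in control mice by a mean of -0.36 for H2-Ab1, -0.24 for H2-Aa and -0.15 for H2-Eb1, without overlap. Against ΔLTreg mice the means were -0.40, -0.32 and -0.30, again without overlap. H2-DMb2 went the other way, with a ratio to Cd74 higher by 0.36 in ΔTreg than in control mice without overlap, and it overlapped ΔETreg and ΔLTreg mice. With a pseudocount of 0.5 CPM the difference from control was 0.084 (p = 0.3, exact permutation test). Without the pseudocount, each ratio without overlap had p = 0.1 in the two-sided exact permutation test, the smallest that 3 mice against 2 or 3 allow, and 0.21 after adjustment over the 21 ratios compared. For Ciita the ratio to Cd74 differed by 0.18 from control (p = 0.3, exact permutation test) and by 0.07 from ΔLTreg mice (p = 0.8, exact permutation test).

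Relative to the leukocyte gene Ptprc, all 8 class II genes had a lower mean in ΔTreg than in control mice, although the design is too small for any of these ratios to reach p below 0.05. Ptprc was at 13.9 and 10.9 CPM in control, 10.6, 12.6 and 9.47 in ΔETreg mice, 14.4, 18.8 and 9.64 in the ΔLTreg group and 52.3, 39.6 and 47.8 in the ΔTreg group, a log2 fold change of 1.91 ± 0.24 in ΔTreg against control (adjusted p = 0.000301). The log2 ratio of Cd74 to Ptprc was 3.17 and 3.54 in control, 3.22, 3.19 and 3.72 in ΔETreg mice, 3.51, 3.06 and 3.71 in the ΔLTreg group and 2.73, 2.94 and 2.82 in the ΔTreg group. The ΔTreg mice lay below all others, by a mean of -0.52 against control. For H2-Ab1 the mean difference was -0.88 and for Ciita -0.35, the latter with overlap. The exact permutation test gave p = 0.1 for Cd74 and H2-Ab1, or 0.12 after adjustment over 24 ratios, and p = 0.3 for Ciita.

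**Figure D3:**
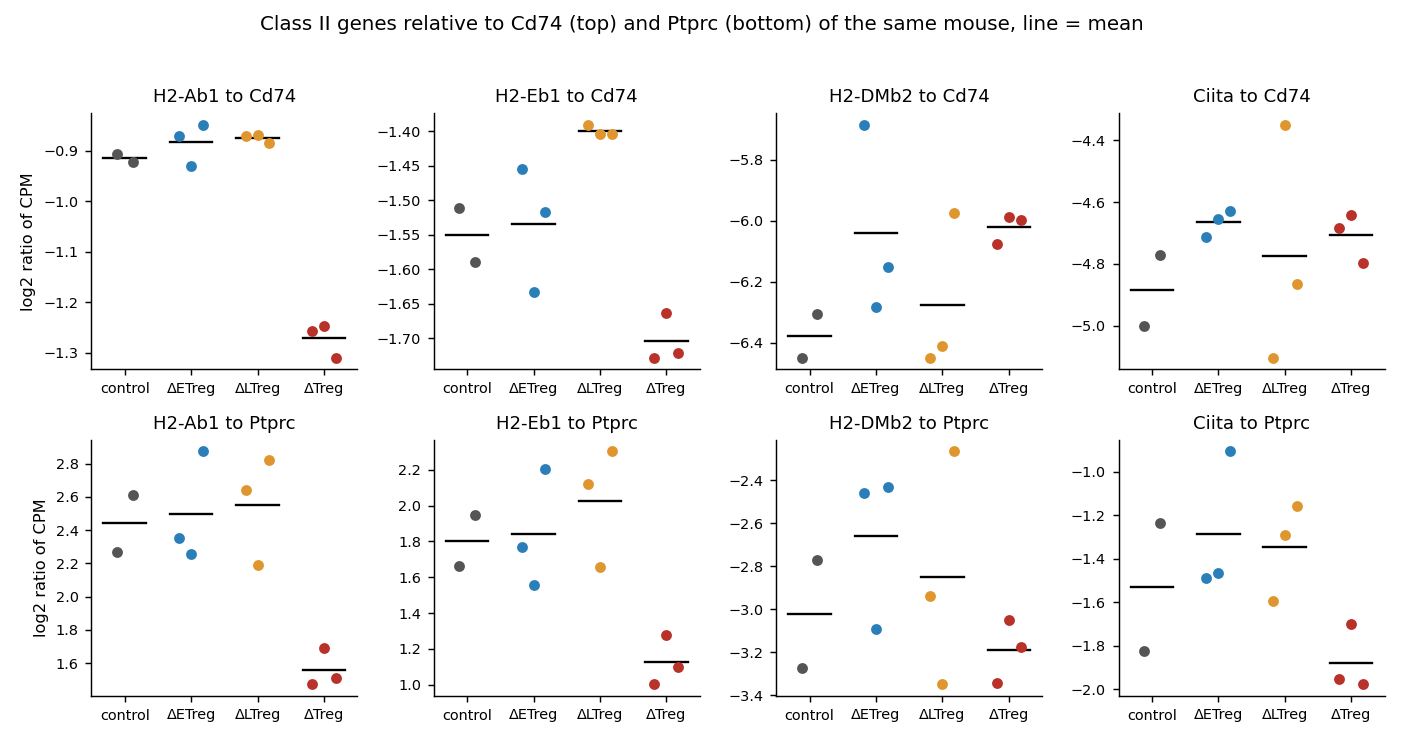
Log2 ratio of the CPM of 4 class II genes to Cd74 (top row) and to Ptprc (bottom row) of the same mouse, on vertical axes that differ between panels and do not start at 0, with 1 point per mouse and a line at the mean. H2-Ab1 and H2-Eb1 lie lower in ΔTreg mice than in all others against both references, while against Cd74 H2-DMb2 lies above control and overlaps the other groups, and Ciita overlaps all groups.

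The interferon-gamma list, from the cytokine through its receptor to the factors that act on Ciita, was higher in ΔTreg skin throughout. Of the 9 genes given here, 9 were called higher against control, against ΔLTreg and against ΔETreg skin. Ifng, the cytokine gene, had 193 counts over the 3 ΔTreg mice and 3 over the 2 controls, a 38.6-fold ratio with an exact 95% interval of 13.02 to 189. Counts were summed over mice for this interval, so it covers counting error only and leaves out the spread between mice. Reads carry no molecular identifiers, so even the counting error may be understated. Ifng was at 2.32, 2.43 and 1.76 CPM in the ΔTreg mice and at or below 0.157 in every other mouse. Irf1, an interferon-induced transcription factor, was at 13.6 and 10.9 CPM in control and 137, 145 and 109.9 in ΔTreg mice, a log2 fold change of 3.41 ± 0.27 (adjusted p = 1.24e-05). Socs1, the feedback inhibitor, was at 8.27 and 7.57 CPM in control, 6.83, 7.63 and 7.11 in ΔETreg mice, 7.51, 9.10 and 6.14 in the ΔLTreg group and 41.0, 33.7 and 27.1 in the ΔTreg group, and rose by 2.10 ± 0.19 against control (adjusted p = 2.86e-05). Both lay highest in the ΔTreg mice, with no overlap with any other group. Whether these changes differ from that of Ciita was not tested. Ifngr1, a receptor subunit, rose by 0.76 ± 0.09, and Irf2, a factor related to Irf1, by 0.75 ± 0.08.

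In ΔLTreg skin 1 of the 9 genes was called against control. Irf1 was higher (1.09 ± 0.25, adjusted p = 0.0365), while Ciita at 0.38 ± 0.23 was not called (adjusted p = 0.394). Irf1 was at 22.3, 37.0 and 19.5 CPM in the ΔLTreg mice, all above both controls. Ifng had 5 counts over the 3 ΔLTreg mice. In ΔETreg skin 0 of 9 genes were called against control by edgeR or DESeq2, and 0 had an unadjusted p below 0.05.

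The factors on which Ciita docks had log2 fold changes between -0.23 and 0.22 from control to ΔTreg skin. Of 7 genes of the promoter complex, 1 rose and 1 fell, where 12.1% of all genes tested were called higher and 9.39% lower. Rfx5, the DNA-binding subunit of the X box complex, was at 15.2 and 15.1 CPM in control and 18.2, 17.8 and 17.0 in ΔTreg mice, a log2 fold change of 0.22 ± 0.07 (adjusted p = 0.0349). ΔLTreg and ΔETreg mice, at 17.2 to 17.9 and 16.2 to 17.1 CPM, were also above both controls. Creb1, the activator that binds beside it, fell by 0.23 on the log2 scale (SE 0.05, adjusted p = 0.00915). The list's median log2 fold change was 0.01, and against ΔLTreg skin 0 of the 7 genes were called by edgeR or DESeq2, and 0 had an unadjusted p below 0.05. In ΔTreg against ΔETreg skin 2 of the 7 were lower, where 9.81% of all genes tested were called lower.

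**Figure D4:**
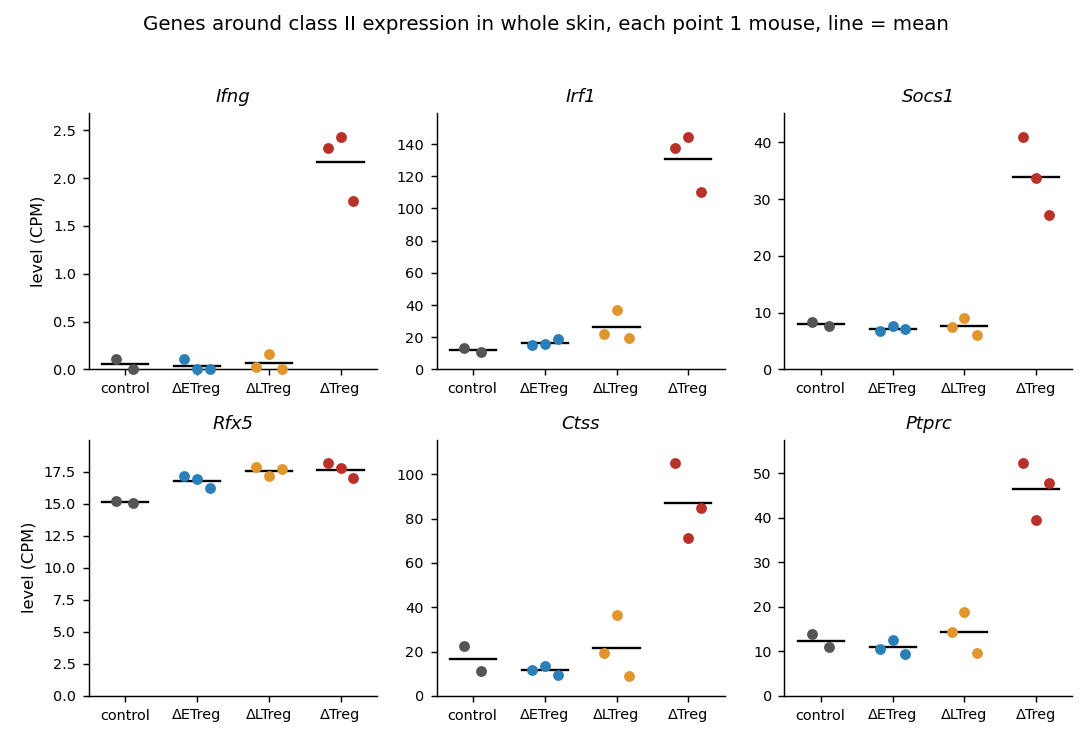
Level in CPM (vertical axes, from 0, a scale for each gene) of the cytokine gene Ifng, the interferon-induced factor Irf1, the feedback inhibitor Socs1, the promoter factor Rfx5, the invariant chain protease Ctss and the leukocyte gene Ptprc, with 1 point per mouse and a line at the mean. The ΔTreg mice lie above all other mice in every panel but that of Rfx5, which spans 15.1 to 18.2 CPM over all 11 mice.

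Of 8 genes for processing of antigen in the endolysosome, 7 rose and none fell from control to ΔTreg skin by edgeR, with a median log2 fold change of 0.53. Against ΔLTreg skin of the same age 4 of 8 were higher (Ctss, Ctsz, Ifi30 and Lgmn), and the values ran from -0.03 for Ctsd to 2.03 for Ctss. Ifi30, the reductase that opens disulphide bonds of antigens, rose by 1.05 ± 0.10 (adjusted p = 5.01e-05) and Lgmn, a protease of the same compartment, by 1.02 ± 0.17 (adjusted p = 0.00157). The cathepsin genes Ctsz and Ctsb rose by 0.63 ± 0.11 and 0.43 ± 0.07. Ctss, which makes the late cuts of the invariant chain and was picked after its values had been seen, was at 22.4 and 11.04 CPM in control, 19.3, 36.5 and 8.80 in ΔLTreg and 105, 71.2 and 84.7 in ΔTreg mice. It rose by 2.37 ± 0.49 (adjusted p = 0.00548), and its spread among control and ΔLTreg mice was wide.

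Of 4 genes that set class II turnover, 2 were higher in ΔTreg than in control skin. March1, the ubiquitin ligase that sends surface class II for degradation, was at 3.12 and 1.67 CPM in control and 7.42, 7.19 and 6.83 in ΔTreg mice and rose by 1.56 ± 0.24 (adjusted p = 0.00108). Il10, the cytokine that induces March1, had 32 counts over the ΔTreg mice and 2 over the controls, a 9.61-fold ratio with an exact 95% interval of 2.45 to 82.8. The intervals given for Il10 cover counting error only and leave out the spread between mice. Il10 had 14 counts over the ΔLTreg mice of the same age, a ratio of ΔTreg to ΔLTreg of 2.33 (1.21 to 4.72). Over the ΔETreg mice it had 8 counts, a ratio of 3.69 (1.67 to 9.27). March8, a related ubiquitin ligase, was at a mean of 84.4 CPM in control and 81.7 in ΔTreg skin and was not called (adjusted p = 0.558).

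All 6 genes of the co-stimulation list were higher in ΔTreg than in control skin. Cd274, which encodes PD-L1, was at 3.12 and 2.11 CPM in control, 4.14, 3.71 and 3.81 in ΔETreg mice, 5.69, 7.65 and 4.20 in the ΔLTreg group and 38.5, 35.9 and 26.9 in the ΔTreg group. It rose by 3.68 ± 0.27 against control in ΔTreg (adjusted p = 8.17e-06) and by 1.14 ± 0.27 in ΔLTreg skin (adjusted p = 0.0377). Cd40, the receptor for T cell help, rose by 2.70 ± 0.25 and Icosl, the ligand of ICOS, by 1.06 ± 0.12 in ΔTreg skin. Pdcd1lg2, which encodes PD-L2, had 540 counts over the ΔTreg mice and 6 over the controls. Icosl was also higher in ΔLTreg than in control skin (0.63 ± 0.12, adjusted p = 0.0172).

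Of the less expressed class II genes, H2-Oa and H2-Ob encode the H2-O dimer that restrains H2-DM, and H2-Eb2 is a second beta chain gene. H2-Oa and H2-Eb2 had too few counts to be tested, and H2-Ob at 1.17 ± 0.75 was not called in ΔTreg against control (adjusted p = 0.303). Their summed level was at most 0.958 CPM in any mouse.

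Markers of the cells that carry class II moved unequally. The leukocyte list was higher in ΔTreg than in control skin for 4 of 4 genes, with summed levels of 53.6 to 72.7 CPM in control and 173 to 239.7 in ΔTreg mice. Of the macrophage list 6 of 9 genes were higher, among them Adgre1, which encodes F4/80 (1.37 ± 0.41, adjusted p = 0.0357), while Csf1r, the receptor of macrophage growth factor, was not called (0.72 ± 0.25, adjusted p = 0.0680). Its summed level was 188 to 214 CPM in control and 527 to 688 in ΔTreg mice. Of the dendritic cell list 3 of 8 were higher (Itgax, Ccr7 and Clec10a), with summed levels of 18.8 to 22.3 and 66.5 to 98.5 CPM. Most of that sum in ΔTreg mice is Clec10a, which went from a mean of 9.71 to 60.5 CPM and is also made by macrophages. The lineage markers Flt3 (-0.11 ± 0.33) and Zbtb46 (0.23 ± 0.16) were not called.

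Cd207, which encodes langerin and is on the Langerhans cell list, went the other way from class II. It was at 3.57 and 4.46 CPM in control, 3.73, 3.88 and 4.20 in ΔETreg mice, 4.62, 4.04 and 3.73 in the ΔLTreg group and 1.20, 1.22 and 1.73 in the ΔTreg group, and fell by 1.52 on the log2 scale against control (SE 0.19, adjusted p = 0.000251). Every ΔTreg mouse was below every other mouse. Fewer cells with Cd207 and less Cd207 RNA per cell cannot be told apart in whole skin. Epcam, also made by keratinocytes, rose by 0.65 ± 0.07, and the other 3 genes of the list were not called. The list's summed level, 350.5 to 369.8 CPM in control and 453 to 475 in ΔTreg mice, is mostly that of Epcam and Mfge8.

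B cell transcripts were near the floor in every group. Of 5 genes 2, Cd79a and Cd79b, had enough counts to be tested and neither was called by edgeR or DESeq2 or had an unadjusted p below 0.05, Ms4a1 was not testable, and the summed level was 0.518 to 0.771 CPM in control and 0.683 to 0.897 in ΔTreg mice. All 6 genes of the T and NK cell list were higher in ΔTreg than in control skin, with summed levels of 5.36 to 6.81 and 29.3 to 36.8 CPM. Cd3e and Cd3d, subunits of the T cell receptor complex, rose by 1.56 ± 0.20 and 2.16 ± 0.22. The part of these markers in the class II values was not tested.

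Markers of resident skin cells moved in both directions. Of the keratinocyte list 1 of 5 genes rose and 2 fell from control to ΔTreg skin, with Krt14 at 0.40 ± 0.10 and Krt5, which was not called, at 0.26 ± 0.10. The 2 that fell were Krt1, from a mean of 811 to 212 CPM, and Krt10, from 2099 to 1329 CPM. Krt1 was at a mean of 287 CPM in ΔLTreg skin. Summed levels of the list were 9546 to 9950.4 CPM in control and 9913 to 10140.0 in ΔTreg mice. Of the fibroblast list 2 of 4 genes were lower, the collagen genes Col1a1 and Col1a2, which fell by 1.02 and 1.07 on the log2 scale. The list's summed level (12958 to 14827 and 6605 to 7396 CPM) is mostly that of these 2 genes. The other 2 were not called, with means in control and ΔTreg skin of 63.6 and 54.5 CPM for Pdgfra and 318 and 282 for Dcn. Of the endothelial list, Pecam1 rose by 0.69 ± 0.05 while Cdh5 and Kdr were lower (191 to 205 and 204 to 211 CPM). Of the muscle list, Acta1 (0.30 ± 0.42) and Ckm (0.88 ± 0.42) were not called and Myh4 was higher (946 to 1026 and 877 to 1755 CPM). Muscle and fibroblast sums also ranged widely among the ΔLTreg mice, from 1123 to 3605 and from 6168 to 13343 CPM. Their part in the class II values was not tested.

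Across the 11 libraries the 8 genes had pairwise Pearson correlations of log2 CPM from 0.90 to 0.996, with a median of 0.96 over 28 pairs. The 10 other genes most like their mean scaled profile had r from 0.988 to 0.993. They were Cd226, Crlf2, H2-M3, Il12rb1, Efhd2, Sectm1a, Bak1, Ear2, Il18r1 and Ly6e. H2-M3 encodes a class I-like molecule that presents formylated peptides and was at a mean of 1.99 CPM in control and 13.1 in ΔTreg skin. Il12rb1, a subunit of the interleukin-12 receptor, went from 0.601 to 5.87 CPM. The points share their groups, libraries and depth, so these values are a description with no test.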

How the data were processed

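Whole skin of 11 mice was analysed in 4 groups taken from the treatment labels. Reads had been trimmed by the authors (Trimmomatic 0.36), aligned to the GRCm38 build (STAR 2.5.2b) and assigned to genes (featureCounts of Subread 1.5.2), per the labels and the paper. The authors deposited raw counts, whole numbers for 49315 genes, without normalization. The strand setting and annotation release are not given in the sources used here. Names, coordinates and exon lengths came from GENCODE M21 on the same build, and promoters from RefSeq.

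The analysis used edgeR 4.0.16 under R 4.3.3. Genes were filtered with filterByExpr by group (18375 left), libraries were scaled by TMM, and 1 quasi-likelihood model was fitted to all 11 libraries and tested for 6 pairs of groups, with Benjamini-Hochberg adjustment over all genes tested. These p-values come from a model across genes and are not exact tests. Each SE was taken as the absolute log2 change over the root of its F statistic. CPM uses the scaled library sizes, log2 CPM for correlations has a prior count of 2, and RPKM divides CPM by the summed exon length. Ratios were compared with a two-sided exact permutation test. The fit was tested on simulated data. Replicate libraries differed by more than counting error, so each was used as a replicate of its own.

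The 8 genes and all lists were chosen with earlier results of these data known. Named genes were the 8, of each pathway list at most the 4 called genes with the smallest p in ΔTreg against control, Ifng, Irf1 and Rfx5, the first 2 of each marker list and the 10 genes most alike. Some genes of these lists are not reported here and were left out of the lists' counts and sums. Genes named to complete a count of called or uncalled members, H2-Ea-ps, the overlapping genes and Ctss fall outside this rule and were chosen after their values were seen. Alternatives were DESeq2 1.42.0, its size factors, library size alone, no filter, at least 10 counts in every library, only the 2 groups compared, each mouse left out, and H2-DMb1 summed with H2-DMb2. For the ratios they were a pseudocount of 0.5 CPM and the summed leukocyte list in place of Ptprc. The motif AACNGATG was added after seeing the data.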

Additional observations from a re-analysis of the deposited data

How the results depend on the processing

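In the 3 comparisons of ΔTreg skin every class II gene stayed higher and called under all alternatives and with each mouse left out, with adjusted p-values up to 0.0201. DESeq2 called 1 gene in ΔLTreg against control (H2-Eb1) and the fit without a filter 3 (H2-Aa, H2-Ab1 and H2-Eb1), where the main count was 0, and with each mouse left out it ranged from 0 to 2. In ΔLTreg against ΔETreg the count fell from 4 to 2 with library size alone and to 0 with only the 2 groups compared, and ranged from 0 to 5 with each mouse left out. Without a filter the count of genes called over the whole table rose from 836 to 1790 in ΔLTreg against control and from 1173 to 2173 in ΔLTreg against ΔETreg, and it was 154 and 540 with only the 2 groups compared. In ΔETreg against control the whole-table count was 1 and ranged from 0 to 54 over these settings. The log2 fold change of Ciita in ΔETreg against control ranged from -0.056 to 0.18 with each mouse left out, around a value of 0.06. Of the ratios, that of H2-DMb2 to Cd74 in ΔTreg against ΔETreg went from 0.02 to -0.21 with a pseudocount of 0.5 CPM and ranged from -0.10 to 0.20 with mice left out. That of Ciita to Cd74 went from 0.07 to -0.00623 against ΔLTreg with the pseudocount, ranging from -0.10 to 0.28, and ranged from -0.076 to 0.0025 against ΔETreg. That of H2-DMa to Cd74 against ΔLTreg ranged from -0.17 to 0.0030, and that of H2-DMb2 to Ptprc against control went from -0.17 to 0.025 with the summed leukocyte list and ranged from -0.42 to 0.085. The cause of these changes was not tested. No paired analysis was possible because the labels give no replicate numbers that groups share. Where a control mouse is left out, the lone control is assumed to vary like the other groups. H2-DMb2, with 40 and 41 counts in control, is the least deeply counted of the 8 genes.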
